A study of Mus musculus with 8 samples.

Results

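The 10 genes described here encode the sensors and activators of the unfolded protein response, the signalling system that adjusts the endoplasmic reticulum (ER) to its protein load. They are Ern1 of the IRE1 arm, Eif2ak3 and Atf4 of the PERK arm, Atf6, Atf6b, Mbtps1 and Mbtps2 of the ATF6 arm, and Creb3, Creb3l2 and Crebrf, which belong to or act on the related CREB3 family. They were taken by name from the 27179 genes of the deposited count table, and all 10 passed the filter on low counts that left 15073 genes. RNA came from plasma cells of C57BL/6 mouse bone marrow, sorted as positive for Blimp1-GFP and CD138, and each group holds 2 libraries. The groups were Blimp1KO (genotype Blimp1-/-, batch 1), WT replicates 1 and 2 (wild type, batch 1), Xbp1KO (genotype Xbp1-/-, batch 2) and WT replicates 3 and 4 (wild type, batch 2). The comparisons are Blimp1KO with WT replicates 1 and 2, and Xbp1KO with WT replicates 3 and 4. The deleted exons, any Cre driver, the reporter allele, and the age and sex of the mice are not given in the sources used here. The study's design text calls the replicates biological.

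IRE1, encoded by Ern1, is an ER kinase and ribonuclease that cuts the Xbp1 mRNA, and the spliced product encodes the transcription factor XBP1, which drives genes of folding, degradation and secretion. PERK, encoded by Eif2ak3, phosphorylates the translation factor eIF2alpha, which lowers protein synthesis and favours translation of ATF4. ATF6 and its paralog ATF6B leave the ER under stress and are cut in the Golgi by the proteases S1P (Mbtps1) and S2P (Mbtps2), which frees their transcription factor domains. In plasma cells the IRE1-XBP1 arm is known for its part in high antibody secretion. RNA levels do not report the splicing, phosphorylation or cleavage through which these proteins act.

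The 3 genes with the largest differences between Xbp1KO and WT of batch 2 were Atf6b, Eif2ak3 and Ern1, and the 250 bases before the start sites of the RefSeq promoter table are shown so that the values below can be set beside the sequence. The sequences are from RefSeq, build GRCm38.p6, written along the gene's strand, with CCAAT boxes (CCAAT, or ATTGG on the other strand) and ACGTG cores in capitals. The Eif2ak3 window is chr6:70844265-70844514 on the plus strand, the Atf6b window chr17:34646896-34647145 on the plus strand, and the Ern1 window chr11:106487797-106488046 on the minus strand.
Eif2ak3: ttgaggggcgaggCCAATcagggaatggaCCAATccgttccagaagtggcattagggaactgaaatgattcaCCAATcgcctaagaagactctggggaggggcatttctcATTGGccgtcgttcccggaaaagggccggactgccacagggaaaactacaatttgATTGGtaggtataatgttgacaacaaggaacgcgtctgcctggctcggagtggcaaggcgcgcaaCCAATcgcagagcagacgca
Atf6b: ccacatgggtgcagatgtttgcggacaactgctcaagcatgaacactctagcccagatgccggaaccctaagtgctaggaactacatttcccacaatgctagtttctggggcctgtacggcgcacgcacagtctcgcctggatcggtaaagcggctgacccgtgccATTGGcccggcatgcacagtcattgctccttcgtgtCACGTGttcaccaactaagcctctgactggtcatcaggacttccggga
Ern1: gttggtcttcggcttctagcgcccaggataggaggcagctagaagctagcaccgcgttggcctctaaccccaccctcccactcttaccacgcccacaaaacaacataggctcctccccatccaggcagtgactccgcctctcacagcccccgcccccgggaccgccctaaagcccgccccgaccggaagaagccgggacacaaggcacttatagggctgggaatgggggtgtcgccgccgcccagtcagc

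The Eif2ak3 window held 6 CCAAT boxes, a number reached or passed by 19 of 32851 promoter windows of this length (0.0578%). The Atf6b window held 1 CCAAT box and a palindrome, CACGTG, that was counted as 2 overlapping ACGTG matches. The Ern1 window held neither motif. For Eif2ak3 that start site lies inside the gene interval given below, which begins at 70844484, so the last stretch of its window, with the CCAAT box nearest to the end, falls within the gene. Over all windows, both strands searched, 33.9% held at least 1 CCAAT box and 16.6% at least 1 ACGTG core. Of the 9 members with a window, 5 held a CCAAT box (Eif2ak3, Atf4, Atf6b, Creb3l2 and Crebrf) and 3 an ACGTG core (Atf6b, Creb3 and Crebrf). The windows of Creb3l2, Crebrf and Mbtps1 also reach into their genes. The Creb3l2 CCAAT box and the Crebrf CACGTG nearest to the window's end fall within the gene, and each has a further match outside it. No member's window held the full ER stress element (0.113% of all windows), the ER stress element II (0.0304%), the unfolded protein response element TGACGTGG (0.563%) or the cAMP response element TGACGTCA (1.55%). Both ER stress elements contain a CCAAT box on one of the strands, and TGACGTGG contains the ACGTG core. A match or its absence describes these letters in this window only.

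Total counts were 44012152 to 145411827 per library. Immunoglobulin genes took 29.98% and 25.2% of them in Xbp1KO, against 69.7% and 64.8% in WT of batch 2. They took 55.4% and 58.4% in Blimp1KO, against 75.7% and 75.6% in WT of batch 1. Levels are in CPM, read counts divided by a library size scaled by the trimmed mean of M values (TMM). A level divided by the gene's length in the count table is a CPM per kilobase. The TMM factors also differed between groups, at 1.796 and 2.108 in Xbp1KO and 0.8056 and 0.9448 in WT of batch 2. They were 1.058 and 0.965 in Blimp1KO and 0.5635 and 0.6033 in WT of batch 1. Levels and fold changes below are thus relative to the TMM scale, not to total counts. Prdm1, which encodes Blimp1, was at 243 and 176 CPM in Blimp1KO and at 301 and 306 CPM in WT of batch 1. Xbp1 was at 1302 and 1105 CPM in Xbp1KO and at 2129 and 2203 CPM in WT of batch 2. Both counts run over the whole gene, so these levels do not test the genotype labels. The sort marker Sdc1 (CD138) was at 376 and 408 CPM in Blimp1KO, against 584 and 540 CPM in WT of batch 1. It was at 639 and 534.5 CPM in Xbp1KO, against 395 and 309 CPM in WT of batch 2. The 8 plasma cell markers, Sdc1, Prdm1 and Xbp1 among them, had a median log2 fold change of -0.53 in Blimp1KO, with 8 estimates below 0. In Xbp1KO the median was 0.21, with 2 estimates below 0. In either comparison, 0 of the 8 passed the test used below. Summed neutrophil and monocyte markers (14 genes) were at 44.0 and 1422 CPM in Xbp1KO, against 13.1 and 603 CPM in WT of batch 2. Xbp1KO replicate 2 and WT replicate 4 thus stood apart from their partners. In batch 1 this sum was 507 and 279 CPM in Blimp1KO and 293 and 376 CPM in WT. Summed erythroid and megakaryocyte markers (12 genes) were at 14.6 and 1497 CPM in Xbp1KO, against 47.1 and 474 CPM in WT of batch 2. The same libraries were high. In batch 1 this second sum was 50.2 and 231 CPM in Blimp1KO and 50.3 and 247 CPM in WT, higher in replicate 2 of both groups. Most of the 44.0 CPM of neutrophil and monocyte markers in Xbp1KO replicate 1 came from Itgam. Itgam was at 41.7 and 40.8 CPM in Xbp1KO, against 7.66 and 14.8 CPM in WT of batch 2. It was the 1 marker of that list called higher in Xbp1KO by edgeR (adjusted p = 0.0187). It was also at 58.7 and 44.6 CPM in Blimp1KO, against 12.3 and 15.5 CPM in WT of batch 1, without a call. Of the listed markers found in the table, 0 had no counts in both libraries of a group. In such bulk samples, fewer cells of a type and less RNA per cell cannot be told apart.

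Ern1 was at 341 and 249 CPM in Xbp1KO and at 143 and 106 CPM in WT of batch 2. Both Xbp1KO libraries lay above both WT libraries, yet the difference did not pass the test: the estimate was a log2 fold change of 1.24 ± 0.42 (SE, n = 2 libraries in each group), with a 95% interval of 0.24 to 2.24, an unadjusted p of 0.0217 and an adjusted p of 0.131 by the quasi-likelihood test of edgeR (Benjamini-Hochberg over 15073 genes). The fitted fold was 2.36. In Blimp1KO, Ern1 was at 76.0 and 31.4 CPM, against 103 and 77.1 CPM in WT of batch 1. The Blimp1KO libraries lay below the WT libraries by a narrow gap, and the log2 fold change was -0.74 ± 0.42 (interval -1.74 to 0.25, adjusted p = 0.513). Ern1 (Entrez 78943) lies on chromosome 11 at 106397620 to 106487796 in GRCm38.p6.

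**Figure D1:**
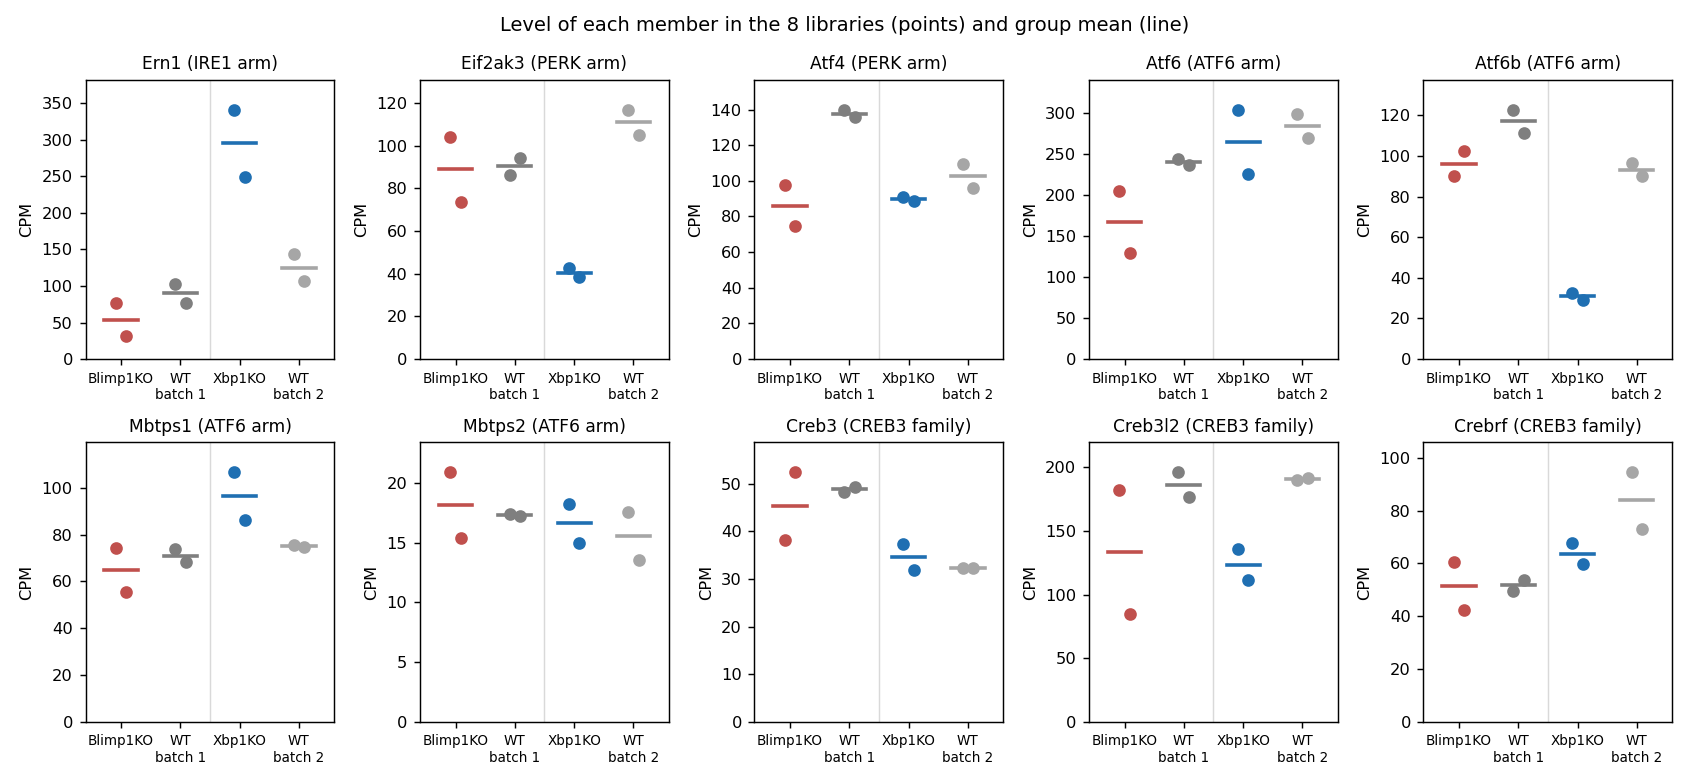
Level in CPM of each of the 10 genes (1 panel each) in the 8 libraries; points are libraries, lines are group means, and each panel's y axis starts at 0. Ern1 sits at 341 and 249 CPM in Xbp1KO, above both WT libraries of batch 2, while Eif2ak3 and Atf6b sit below them.

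Eif2ak3, the gene of PERK, fell in Xbp1KO. It was at 42.6 and 38.5 CPM in Xbp1KO, against 117 and 105 CPM in WT of batch 2, and the groups were far apart. The log2 fold change was -1.45 ± 0.21 (interval -1.94 to -0.97, adjusted p = 0.0101), which is a 2.74-fold lower level. In Blimp1KO the gene was at 104 and 73.8 CPM, against 86.4 and 94.1 CPM in WT of batch 1. The WT libraries lay between the Blimp1KO libraries, and the log2 fold change was -0.02 ± 0.20 (interval -0.50 to 0.45, adjusted p = 0.991). Eif2ak3 (Entrez 13666) lies on chromosome 6 at 70844484 to 70905241, and 8.05% of its exonic bases in GENCODE M21 also lie in an exon of Gm43292 on the other strand. The strand setting of the counting is not given in the sources used here.

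Atf4, the transcription factor translated when eIF2alpha is phosphorylated, was at 97.5 and 74.7 CPM in Blimp1KO and at 140 and 136 CPM in WT of batch 1. Both Blimp1KO libraries lay below both WT libraries. The log2 fold change of -0.68 ± 0.18 (interval -1.11 to -0.24) had the lowest unadjusted p of the 10 genes in Blimp1KO, 0.0078, and an adjusted p of 0.163. In Xbp1KO, Atf4 was at 91.1 and 88.7 CPM, against 109.6 and 95.8 CPM in WT of batch 2. The groups did not overlap, with a log2 fold change of -0.19 ± 0.18 (interval -0.63 to 0.24, adjusted p = 0.595).

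Atf6 and Atf6b, the paralogs that S1P and S2P cut, had unlike values in Xbp1KO. Atf6b was at 32.6 and 29.3 CPM in Xbp1KO, against 96.3 and 90.2 CPM in WT of batch 2. It fell 3.02-fold, a log2 fold change of -1.59 ± 0.16 (interval -1.98 to -1.21, adjusted p = 0.00382), with the groups far apart. Atf6 was at 304 and 226 CPM in Xbp1KO and at 299 and 269 CPM in WT of batch 2; the WT libraries lay between the Xbp1KO libraries. Its log2 fold change was -0.10 ± 0.27 with an interval of -0.74 to 0.53 (adjusted p = 0.863). Atf6b (Entrez 12915) lies on chromosome 17 at 34647146 to 34655074 and Atf6 (Entrez 226641) on chromosome 1 at 170704457 to 170868585.

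In Blimp1KO, Atf6b was at 90.1 and 102 CPM, against 123 and 111 CPM in WT of batch 1, with a log2 fold change of -0.28 ± 0.16 (interval -0.66 to 0.09, adjusted p = 0.513). Atf6 was at 205 and 129 CPM in Blimp1KO and at 244 and 237 CPM in WT of batch 1, with a log2 fold change of -0.53 ± 0.27 (interval -1.17 to 0.11, adjusted p = 0.463). For both paralogs the Blimp1KO libraries lay below the WT libraries and the difference did not pass the test.

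The protease genes had small estimates. Mbtps1, which encodes S1P, was at 107 and 86.1 CPM in Xbp1KO, against 75.6 and 74.5 CPM in WT of batch 2, above them in both libraries, with a log2 fold change of 0.36 ± 0.20 (interval -0.10 to 0.83, adjusted p = 0.332). In Blimp1KO its libraries, at 74.3 and 55.6 CPM, lay on both sides of those of WT of batch 1, at 73.8 and 68.3 CPM. Mbtps2, which encodes S2P, had the lowest level of the 10 genes per kilobase in all 4 groups, with a log2 fold change of 0.09 ± 0.21 in Xbp1KO and 0.07 ± 0.21 in Blimp1KO. In GENCODE M21, 28.4% of its exonic bases also lie in exons of Yy2 on the same strand, so its count may be shared with that gene.

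Creb3l2, an ER-resident CREB3 relative that is cut like ATF6, was at 136 and 111 CPM in Xbp1KO, against 190.1 and 192 CPM in WT of batch 2, below them in both libraries, with a log2 fold change of -0.63 ± 0.34 (adjusted p = 0.329). It was at 182 and 84.4 CPM in Blimp1KO and at 196 and 177 CPM in WT of batch 1, with a log2 fold change of -0.48 ± 0.34 (adjusted p = 0.627). The distance between the Blimp1KO libraries exceeded that between the group means. Creb3 was at 37.3 and 31.96 CPM in Xbp1KO and at 32.3 and 32.4 CPM in WT of batch 2. It was at 38.1 and 52.4 CPM in Blimp1KO and at 48.4 and 49.2 CPM in WT of batch 1. Its groups overlapped in both comparisons, and exons of Tln1 and Gba2 on the other strand cover 15.2% and 5.61% of its exonic bases. Crebrf, a regulator that promotes the breakdown of CREB3, was at 67.5 and 59.6 CPM in Xbp1KO and at 94.5 and 73.1 CPM in WT of batch 2, with a log2 fold change of -0.40 ± 0.22 (adjusted p = 0.342). In Blimp1KO its estimate was -0.01 ± 0.22.

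Counted together, 2 of the 10 genes passed the test in Xbp1KO, both lower, beside 7.7% of all genes tested (5.06% lower and 2.63% higher). The median log2 fold change of the 10 was -0.15, against 0.08 over all genes. Of the 10 estimates in Xbp1KO, 6 were below 0, where 55.8% of all genes were above 0. Between Xbp1KO and WT of batch 2, 5 of the 10 genes were lower and 2 higher without overlap of the libraries, beside 25.8% and 31.8% of all genes. In Blimp1KO, 0 of the 10 passed, beside 0.862% of all genes. At an unadjusted p under 0.05, 1 of the 10 (Atf4) and 2093 of the 15073 genes were found there by edgeR, and the DESeq2 Wald test called 1 of the 10, again Atf4, at an adjusted p of 0.0193, beside 6.77% of the 12735 genes to which it gave an adjusted p. The median of the 10 in Blimp1KO was -0.21, against -0.01 over all genes. There 9 of 10 estimates were below 0, where 49.5% of all genes were above 0. Without overlap of the libraries, 4 of the 10 were lower in Blimp1KO and 0 higher, beside 22.1% and 20.9% of all genes.

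**Figure D2:**
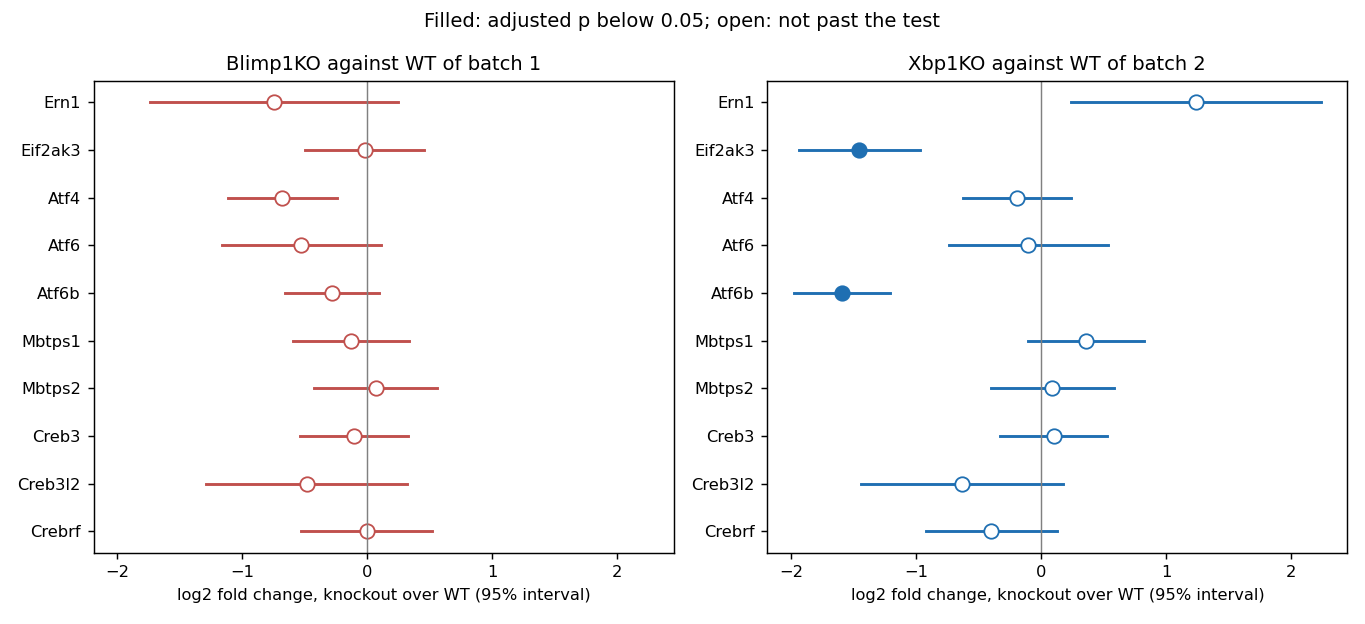
Log2 fold change of each gene, Blimp1KO over WT of batch 1 (left) and Xbp1KO over WT of batch 2 (right); points are edgeR estimates, bars are 95% intervals, and filled points have an adjusted p below 0.05. Only Eif2ak3 at -1.45 and Atf6b at -1.59 are filled, both in Xbp1KO.

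The calls in Xbp1KO rest on 2 libraries per group. Leaving out any library of batch 2 ended the Eif2ak3 call: the adjusted p was 0.0527 without Xbp1KO replicate 1, 0.0777 without Xbp1KO replicate 2, 0.0760 without WT replicate 3 and 0.0544 without WT replicate 4, with log2 fold changes of -1.60 to -1.36 over all single leave-outs. Atf6b was called in each of these. Without both Xbp1KO replicate 2 and WT replicate 4, the libraries with the higher neutrophil and erythroid marker sums, the log2 fold changes were 1.24 for Ern1, -1.46 for Eif2ak3 and -1.57 for Atf6b, but the adjusted p values were 0.486, 0.194 and 0.127 and 0 of the 10 genes were called. In that fit 1 library stood for each batch 2 group and its spread was taken from batch 1. Ern1 in Xbp1KO passed the test in 6 of 19 alternatives: without Blimp1KO replicate 1 (adjusted p = 0.0416) or replicate 2 (0.0292), where 3 and 4 of the 10 genes were called beside 10% and 13.1% of all genes, with no filter on low counts (0.0193), with DESeq2 (0.0167), with batch 2 fitted alone (0.0461) and with all 4 WT libraries pooled (0.0498).

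The balance of the 3 sensors was then compared within libraries, per kilobase. In Xbp1KO, Ern1 held 63.1% and 61.7% of the summed CPM per kilobase of Ern1, Eif2ak3 and Atf6, against 35.3% and 31.0% in WT of batch 2. Eif2ak3 held 6.96% and 8.44% in Xbp1KO, against 25.4% and 27.1% in WT of batch 2, and Atf6 held 29.9% and 29.8%, against 39.2% and 41.9%. The shares of all 3 sensors separated these groups. In Blimp1KO, Ern1 held 27.4% and 19.0%, against 33.3% and 26.9% in WT of batch 1, which overlap. Eif2ak3 held 33.2% and 39.5% in Blimp1KO, above the 24.7% and 29.1% in WT of batch 1, while Atf6 held 39.4% and 41.5%, below 42.0% and 44.0%. With the gene-length trend described below removed, the Atf6 shares overlapped, at 39.4% and 48.4% in Blimp1KO and 44.3% and 46.6% in WT of batch 1, while those of Eif2ak3 did not, at 33.2% and 35.5% in Blimp1KO and 23.9% and 27.9% in WT of batch 1.

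**Figure D3:**
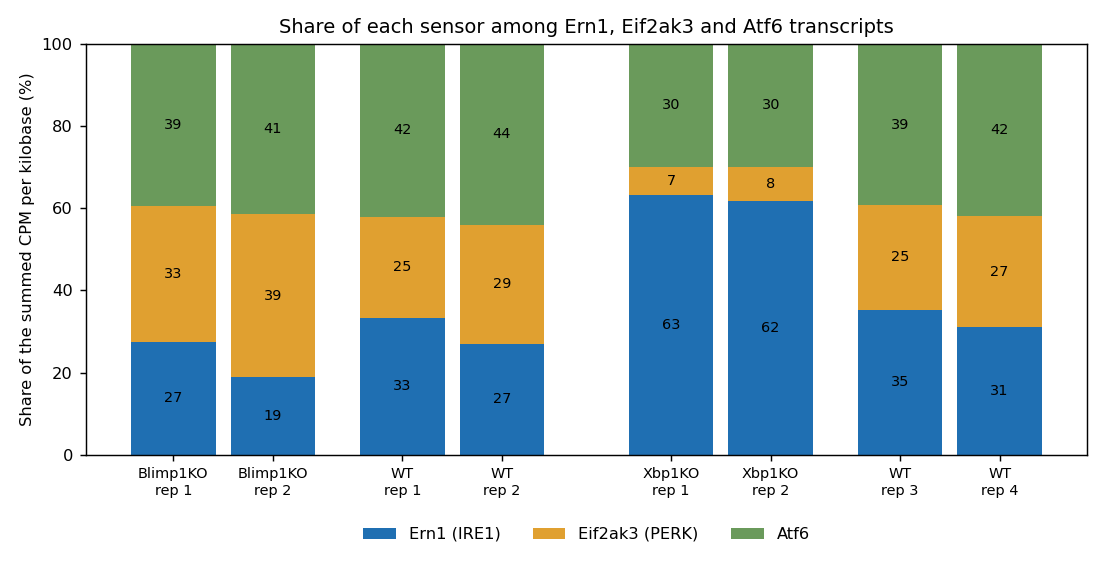
Share of Ern1, Eif2ak3 and Atf6 in their summed CPM per kilobase (y axis, percent) in each of the 8 libraries, as stacked bars that add up to 100. Ern1 takes 63.1% and 61.7% in the Xbp1KO libraries, against 35.3% and 31.0% in WT of batch 2.

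The ratio of Ern1 to Eif2ak3, per kilobase, was 9.07 and 7.31 in Xbp1KO, against 1.39 and 1.14 in WT of batch 2, a 6.46-fold difference of the geometric means. The exact 2-sided permutation p was 0.333, the smallest that 2 against 2 libraries allow. The same ratio was 0.827 and 0.481 in Blimp1KO, against 1.35 and 0.927 in WT of batch 1 (exact permutation p = 0.333). The ratio of Atf6 to Atf6b was 3.16 and 2.62 in Xbp1KO and 1.05 and 1.01 in WT of batch 2, a 2.79-fold difference (exact permutation p = 0.333). It was 0.771 and 0.426 in Blimp1KO, on both sides of the 0.674 and 0.722 in WT of batch 1. With the length trend removed, it was 0.772 and 0.695 in Blimp1KO, both below the 0.783 and 0.838 in WT of batch 1. The ratio of Ern1 to Atf6 was 2.11 and 2.07 in Xbp1KO and 0.900 and 0.740 in WT of batch 2.

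The order of the 10 genes by level per kilobase also placed Ern1 differently between groups. Ern1 was first in Xbp1KO at 74.2 CPM per kilobase (85.9 and 62.6 in its libraries), at place 5 in WT of batch 2 at 31.4, at place 8 in Blimp1KO at 13.5 and at place 6 in WT of batch 1 at 22.6. Atf4 led in the other 3 groups, at 49.9 in Blimp1KO, 79.9 in WT of batch 1 and 59.6 in WT of batch 2. Several neighbours in these orders do not differ beyond the spread of their libraries: Ern1 and Eif2ak3 in WT of batch 1, and Atf4 and Creb3l2, Atf6 and Atf6b, and Atf6b and Ern1 in WT of batch 2. In Xbp1KO, the same held for Creb3l2 and Atf6, Mbtps1 and Creb3, and Eif2ak3 and Crebrf. In Blimp1KO, the ranges of 7 of the 9 neighbouring pairs overlapped. In Xbp1KO, Atf6b was at place 7 with 12.2 and Eif2ak3 at place 8 with 9.02 CPM per kilobase, not apart from Crebrf at place 9. Mbtps2 was last in each group, at 3.25 to 3.79.

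Genes around each sensor were described from lists of known partners and targets. Beside the list counts given here and below, 5.06% of all genes were called lower and 2.63% higher in Xbp1KO. In Blimp1KO these shares were 0.285% and 0.577%. With lists this short, a single call does not set a list apart from these shares. Of 9 partners and regulators of IRE1 tested, 1 fell in Xbp1KO and 0 passed in Blimp1KO. The gene that fell was Sec63, an ER translocation factor, at -1.38 ± 0.21 (adjusted p = 0.0134). Xbp1, the substrate of IRE1, had log2 fold changes of -0.98 ± 0.25 in Blimp1KO (adjusted p = 0.141) and -0.85 ± 0.25 in Xbp1KO (adjusted p = 0.0939). Ptpn1, an ER-anchored phosphatase linked to IRE1 signalling, had 1.02 ± 0.18 in Blimp1KO (adjusted p = 0.0624). The list medians were 0.31 in Blimp1KO and -0.08 in Xbp1KO.

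Of 19 targets of the IRE1-XBP1 arm, 13 fell and 0 rose in Xbp1KO, with a median of -1.66 against 0.08 over all genes. All 19 estimates were below 0, where 55.8% of all genes were above 0. Dnajb9, an ER cochaperone that restrains IRE1, was at 13.9 and 12.8 CPM in Xbp1KO, against 186 and 203 CPM in WT of batch 2, a log2 fold change of -3.87 ± 0.18 (adjusted p = 0.000342). Fkbp11, an ER prolyl isomerase, fell by 4.06 ± 0.34 on the log2 scale, Dnajc3, the PERK inhibitor P58IPK, by 2.78 ± 0.22. Hspa13, an HSP70-like ATPase, had a log2 fold change of -2.20 ± 0.18 (adjusted p = 0.00212). In Blimp1KO, 0 of the 19 passed, with a median of -0.48 against -0.01 over all genes. Of these estimates, 18 were below 0, where 49.5% of all genes were above 0. The values nearest to a call there were -0.88 ± 0.19 for Syvn1, an ER-associated degradation ligase (adjusted p = 0.0943), and -1.27 ± 0.30 for Fkbp11 (adjusted p = 0.119). The 13 calls in Xbp1KO became 6 without Xbp1KO replicate 2, 6 without WT replicate 3, 8 without Xbp1KO replicate 1 and 1 without both libraries high in neutrophil and erythroid markers, while the median stayed between -1.82 and -1.56 in these fits.

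Of 14 PERK partners, eIF2 kinases, eIF2B subunits and eIF2alpha phosphatases, 3 fell in Xbp1KO and 0 passed in Blimp1KO, with medians of -0.16 and -0.09. The 3 were Dnajc3, the adaptor gene Nck1 at -0.76 ± 0.14 (adjusted p = 0.0248) and Ppp1r15b, the constitutive eIF2alpha phosphatase subunit, at -0.79 ± 0.19 (adjusted p = 0.0490). Of 19 ATF4 targets, 2 rose and 0 fell in Xbp1KO, with a median of 0.40 against 0.08 over all genes. Over the alternatives this median ran from 0.07 (all 4 WT pooled) to 0.57 (without WT replicate 3), and was 0.10 without Xbp1KO replicate 1. Psat1, an enzyme of serine synthesis, was at 79.9 and 63.5 CPM in Xbp1KO, against 26.1 and 24.7 CPM in WT of batch 2 (log2 fold change 1.497 ± 0.228, adjusted p = 0.0128). Atf5, a transcription factor of the stress response, was at 212 and 163 CPM in Xbp1KO, against 75.5 and 48.6 CPM in WT of batch 2 (1.597 ± 0.282, adjusted p = 0.0209). In Blimp1KO, the ATF4 targets had a median of -0.54 against -0.01. Over the alternatives this median ran from -0.75 (without WT replicate 2) to -0.20 (without WT replicate 1). In the main fit, 1 ATF4 target fell and 0 rose in Blimp1KO. It was Chac1, which degrades glutathione, at 5.20 and 6.03 CPM in Blimp1KO, against 27.7 and 23.4 CPM in WT of batch 1 (-2.18 ± 0.33, adjusted p = 0.0392). The 2 calls in Xbp1KO became 0 without both libraries high in neutrophil and erythroid markers, and the part of those cells in the values was not tested.

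**Figure D4:**
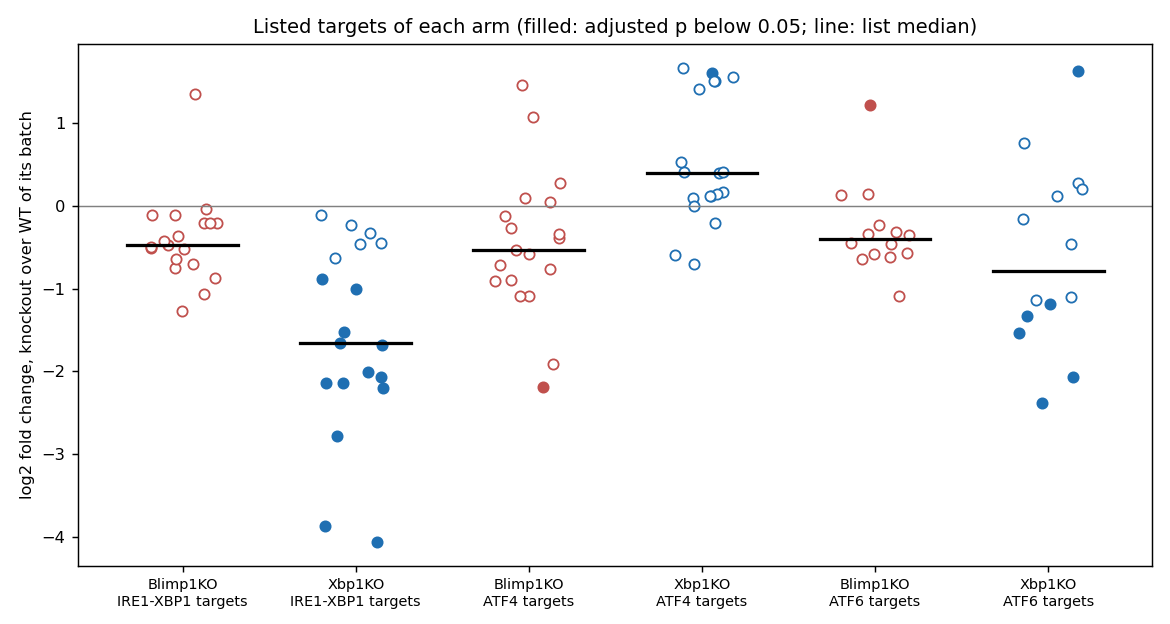
Log2 fold change (y axis) of the listed targets of each arm, in Blimp1KO over WT of batch 1 and Xbp1KO over WT of batch 2; each point is a gene, filled points have an adjusted p below 0.05, and lines are list medians. The IRE1-XBP1 targets in Xbp1KO have a median of -1.66 with 13 of 19 filled, and the ATF4 targets have medians of -0.54 in Blimp1KO and 0.40 in Xbp1KO.

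Of 12 ATF6 partners, 4 fell in Xbp1KO and 0 passed in Blimp1KO, with medians of -0.05 and -0.20. They were Erp44, a thiol chaperone of the early secretory pathway, at -3.05 ± 0.18, Pdia5, a disulfide isomerase that acts on ATF6, at -2.14 ± 0.35, the vesicle coat gene Sec23b at -1.47 ± 0.17, and Wfs1, an ER membrane protein that promotes ATF6 degradation, at -0.76 ± 0.13. Erp44 was at 19.9 and 18.4 CPM in Xbp1KO, against 164 and 153 CPM in WT of batch 2. Of 14 ATF6 targets, 5 fell and 1 rose in Xbp1KO, with a median of -0.78. The chaperone genes Hyou1 at -2.38 ± 0.27, Dnajb11 at -2.07 ± 0.20, Sdf2l1 at -1.54 ± 0.27 and Cnpy3 at -1.19 ± 0.18 fell, as did Creld2 at -1.34. Hsp90b1, the ER HSP90 chaperone, rose at 1.62, and Hspa5, the chaperone BiP, had 0.12 without passing. Creld2, Hsp90b1 and Hspa5 were named after their values were seen. Dnajb11 is also listed among the XBP1 targets, as are Pdia5 of the ATF6 partners and Dnajc3 of the PERK partners. The lists thus share called genes, and a place in a list does not assign a gene to 1 arm alone. In Blimp1KO, 1 ATF6 target rose and 0 fell, with a median of -0.40. It was Cnpy3, a chaperone of Toll-like receptors, at 62.2 and 64.7 CPM in Blimp1KO, against 30.1 and 24.9 CPM in WT of batch 1 (1.21 ± 0.17, adjusted p = 0.0382). Without any 1 of the 4 WT libraries, 0 ATF4 targets and 0 ATF6 targets were called in Blimp1KO, and Chac1 was not called without Blimp1KO replicate 1 either. Among 7 CREB3 paralogs and substrates or partners of the S1P pathway, Insig1, which holds the sterol sensor in the ER, fell by 1.95 ± 0.24 and Creb3l1 by 1.88 ± 0.24 in Xbp1KO, and 0 passed in Blimp1KO. Without both libraries high in neutrophil and erythroid markers, 1 of these 4 ATF6 partners was called, and 0 of the called genes of the other lists in this paragraph, of the IRE1 partners and of the PERK partners passed in Xbp1KO. Leaving out 1 library of batch 2 left 1 of 3 calls among the PERK partners, 0 of 1 among the IRE1 partners, 1 to 3 of 4 among the ATF6 partners, 2 or 3 lower and 0 higher of 6 among the ATF6 targets, and 0 or 1 of 2 among the ATF4 targets.

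Whether the knockouts differed in their effect was tested directly, as the Blimp1KO effect minus the Xbp1KO effect. Of the 10 genes, 1 passed, beside 1.68% of all genes (1.17% in the same direction): Atf6b, with a difference of 1.31 ± 0.23 (interval 0.78 to 1.84, adjusted p = 0.0439). This call was lost in 9 of 18 alternatives, among them the gene-length correction described below (adjusted p = 0.0717) and the replicate block. Eif2ak3 had a difference of 1.43 ± 0.29 (adjusted p = 0.0648) and Ern1 one of -1.99 ± 0.60 (adjusted p = 0.160). The other 7 genes had differences of -0.49 to 0.39. Each knockout has its own batch, so genotype and batch could be compared only through WT. Between WT of batch 2 and WT of batch 1, 0 of the 10 genes passed, beside 2.81% of all genes, and the largest estimates were 0.70 ± 0.22 for Crebrf and -0.59 ± 0.18 for Creb3.

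The Blimp1KO libraries differed from each other by gene length. The median of replicate 2 minus replicate 1 in log2 CPM was 0.58 over 1426 genes under 1500 bases and -0.65 over 1441 genes of 5000 bases and over, whereas in the other 3 groups the length classes had medians of -0.17 to -0.02. Among the members this difference was 0.46 for Creb3 and 0.18 for Atf6b, the first and the third shortest, but -0.38 for Atf4, the second shortest. It was -1.28 for Ern1, -1.11 for Creb3l2 and -0.67 for Atf6. With the length trend removed from each library, Atf6 was at 201 and 211 CPM in Blimp1KO and at 282 and 272 CPM in WT of batch 1, while Ern1 was still apart at 74.4 and 37.7 CPM in Blimp1KO, against 108 and 79.5 CPM in WT of batch 1. Under this correction, 0 of the 10 genes passed in Blimp1KO. Summed mature B cell markers (10 genes, 1 of them called higher) were at 543 and 575 CPM in Blimp1KO and at 185 and 144 CPM in WT of batch 1. The called gene, Spib, was at 157 and 197 CPM in Blimp1KO, against 5.78 and 7.22 CPM in WT of batch 1. Of the 10 estimates, 2 were below 0. More B cells and more of these RNAs per sorted cell cannot be told apart in this sum. The part of these markers in the values of the members was not tested.

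**Figure D5:**
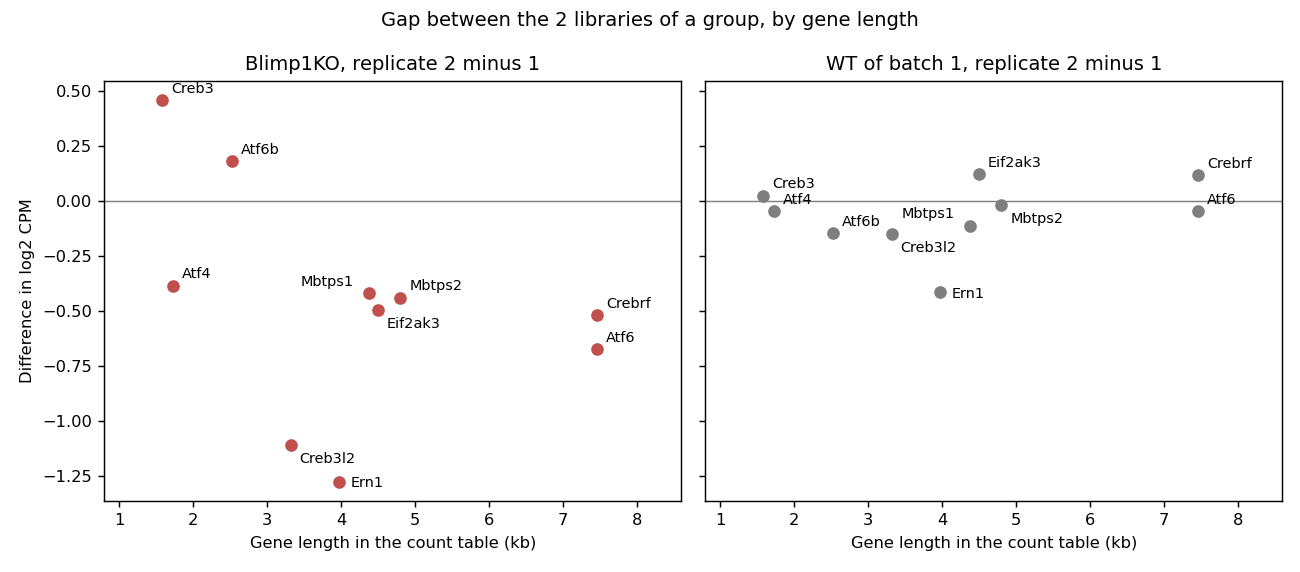
Replicate 2 minus replicate 1 in log2 CPM (y axis) against gene length in kilobases (x axis) for the 10 genes, in Blimp1KO (left) and in WT of batch 1 (right). Points spread over -1.28 to 0.46 in Blimp1KO and over -0.42 to 0.12 in WT of batch 1.

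The genes whose pattern was most like each sensor were found among 6958 genes as those with the smallest root mean square difference in log2 CPM, relative to WT of the batch, over the 8 libraries. For Eif2ak3 they were Stim2 at 0.12, Tspyl2 at 0.13 and Serp1 at 0.15, and these had log2 fold changes of -1.47, -1.63 and -1.53 in Xbp1KO. For Ern1 they were Aldh1l2 at 0.25, Raph1 at 0.28 and Rab11fip4 at 0.28, with log2 fold changes of 0.91, 1.03 and 1.34 in Xbp1KO. Atf6 had closer neighbours, Prkca at 0.0486, Ankrd28 at 0.0517 and Itch at 0.0539, with values of -0.14, -0.06 and -0.08. Serp1 is also among the listed XBP1 targets. These 8 libraries share their group structure and the Blimp1KO length difference, so likeness is a description of these samples.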

How the data were processed

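Per the labels' protocols, TruSeq RNA libraries were made from RNeasy Micro extracts of 8 samples. Raw counts by Entrez gene, not normalized, were deposited in 1 table for all libraries, per the file headers. The values deposited for each sample are log2 FPKM of 13945 genes, whose sorted values differ little between libraries before length division and which served as an alternative. Subread, featureCounts and limma, and the build GRCm38 (mm10), are named in the submitters' processing notes without versions or steps. Symbols came from the sample files for 13860 genes and from RefSeq for 11720.

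Counts were analysed in R 4.3.3 with edgeR 4.0.16: filterByExpr (minimum count 10) left 15073 genes, library sizes were scaled by TMM (factors 0.564 to 2.11), and a quasi-likelihood model with a mean per group was fitted to all 8 libraries (4 residual and 3.06 prior degrees of freedom). P-values were adjusted by Benjamini-Hochberg over all genes, and a gene was called at an adjusted p below 0.05. A standard error is the log2 fold change over the square root of F. Precision is limited by 2 libraries per group rather than by depth. The pipeline was tested on simulated counts. Alternatives used limma 3.58.1 and DESeq2 1.42.0. Replicates differed beyond sampling noise. The members and lists were chosen with earlier results of these data known. Named genes are the 10 members, Prdm1, Xbp1 and Sdc1, up to 4 called genes per pathway list and comparison by p (or 2 at most, as values, where a list had no call), and 3 genes most like Ern1, Eif2ak3 and Atf6. Archease was not found in the table by that name, and Atf6 has no promoter window here.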

Additional observations from a re-analysis of the deposited data

Results flagged for a closer look

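Genes named in the text whose Blimp1KO effect and Xbp1KO effect differed in edgeR's quasi-likelihood test of the difference (Blimp1KO effect minus Xbp1KO effect, log2, with Benjamini-Hochberg adjustment over 15073 genes) were these 10. Among the sensors and activators it was Atf6b, with 1.31 ± 0.23 (adjusted p = 0.0439), from effects of -0.28 in Blimp1KO and -1.59 in Xbp1KO. Among chaperones and folding enzymes, the difference was 3.66 ± 0.23 for Dnajb9, 2.27 ± 0.29 for Dnajc3, 2.81 ± 0.24 for Erp44, 2.79 ± 0.43 for Fkbp11 and 1.69 ± 0.24 for Hspa13, each with the lower effect in Xbp1KO. Pdia5 and Cnpy3 differed by 3.49 ± 0.49 and 2.39 ± 0.25. Their estimates were above 0 in Blimp1KO, at 1.34 and 1.21, and below 0 in Xbp1KO, at -2.14 and -1.19. Among ATF4 targets, Chac1 differed by -2.58 ± 0.45 and Psat1 by -2.58 ± 0.32. Psat1 had -1.09 in Blimp1KO, which did not pass the test, and rose at 1.497 in Xbp1KO. These calls rest on few libraries. Among the 19 IRE1-XBP1 targets, the 5 called differences became 0 without WT replicate 2 and 1 without WT replicate 1 or without any 1 library of batch 2. Without either WT library of batch 1, 0 ATF4 targets, 0 ATF6 partners and 0 ATF6 targets were called. Without both libraries high in neutrophil and erythroid markers, 0 genes of any of the 7 pathway lists were called, and Atf6b was not called either (adjusted p = 0.273).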

How the results depend on the processing

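Of the 190 member values in Blimp1KO, 190 in Xbp1KO and 180 differences of effects computed under alternatives, 167, 169 and 146 kept their direction and their side of the threshold. Atf6b in Xbp1KO kept its call in 18 of 19 alternatives and Eif2ak3 in 14 of 19. Numbers of genes called were 130 in Blimp1KO, 1160 in Xbp1KO and 253 for the difference. Leaving out 1 library gave 0 to 688, 225 to 2123 and 3 to 598 genes, 1 to 4 members in Xbp1KO and 0 to 2 members for the difference. DESeq2 called 862, 2220 and 1180 genes, with 1 member in Blimp1KO and 3 for the difference. No filter on low counts, with 23678 genes tested, gave 517 genes in Blimp1KO and 763 for the difference, with 3 members. All 4 WT pooled gave 269 and 1552 genes, with 3 members for the difference. In Blimp1KO, limma-voom gave 83 genes and the batch alone 20. For the difference, 2 members were called by TMM without immunoglobulin genes and 2 by limma on the deposited log2 FPKM. Without both libraries high in neutrophil and erythroid markers, an alternative chosen after seeing the data, 31, 59 and 2 genes were called, with 0 members in Xbp1KO and 0 for the difference. The replicate numbers shared in batch 1 (correlation of deviations 0.218, 2 pairs) do not establish pairing, and the replicate block there gave 89, 1021 and 178 genes and 0 members for the difference.

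These values changed sign. In Blimp1KO, Crebrf was 0.0114 with RLE scaling, 0.014 with TMM without immunoglobulin genes, 0.0022 with no filter, 0.0114 with DESeq2, 0.0388 in the batch alone, 0.0413 without both marker-high libraries and 0.112 with the gene-length trend removed (added after seeing the data), and Eif2ak3 was 0.0226, 0.0252 and 0.036 in the last 3 of these. Creb3 was 0.16 in Blimp1KO and -0.23 in Xbp1KO with pooled WT, and -0.0044 in Xbp1KO with the length trend removed. Atf6 in Xbp1KO was 0.0142 with pooled WT and 0.0149 without both marker-high libraries. The difference for Mbtps2 was 0.0094 with RLE, 0.056 with TMM without immunoglobulin genes, 0.0095 with DESeq2, 0.13 with pooled WT, 0.0677 without both marker-high libraries and 0.0542 with the length trend removed. With pooled WT it was 0.38 for Creb3 and -0.30 for Crebrf. Single leave-outs gave, in Blimp1KO, -0.12 to 0.27 for Mbtps2, -0.35 to 0.15 for Creb3, -0.24 to 0.21 for Eif2ak3, -0.30 to 0.0699 for Mbtps1 and -0.24 to 0.23 for Crebrf. In Xbp1KO they gave -0.14 to 0.29 for Mbtps2, -0.0917 to 0.23 for Creb3 and -0.41 to 0.12 for Atf6. For the difference they gave -0.45 to 0.0638 for Creb3, -0.45 to 0.61 for Creb3l2 and -0.22 to 0.25 for Mbtps2. The cause was not tested. With 2 libraries per group, Ern1 in Xbp1KO fell on either side of the threshold, with estimates of 0.92 to 1.47 over the alternatives. The main fit takes its spread from all 8 libraries. For Ern1, replicate 2 minus replicate 1 in log2 CPM was -1.28 in Blimp1KO and -0.46 in Xbp1KO. In WT of batch 2, replicate 4 minus replicate 3 was -0.43. The part of the Blimp1KO gap in the Ern1 result was not tested. Atf4 in Blimp1KO was called by DESeq2 only, and Creb3l2 in Xbp1KO only without Blimp1KO replicate 2 (adjusted p = 0.0491).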
